A study of Mus musculus with 4 samples.

Results

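Solute carriers are membrane proteins that move ions, nutrients, metabolites and transmitters across membranes, and their genes carry symbols made of Slc, a family number, the letter a and a member number. The genes described here are the expressed solute carrier genes of mouse brain nuclei. They were chosen by symbol and by measured level. Every gene of that symbol form was taken whose level averaged at least 10 CPM over the 4 libraries. CPM is the gene's number of unique molecular identifiers (UMIs, each counting 1 captured RNA molecule), over all barcodes of a library, scaled to a common library total. The rule kept 149 of the 335 genes with such a symbol, out of 32285 genes in the files, and 186 fell below the threshold, of which 5 had no UMI in any library. The levels therefore chose the genes and are given as a description.

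The nuclei came from the brain, without cerebellum, of wild-type C57BL/6 mice aged 10 weeks, and the design sets 2 ways of harvest and a methanol treatment against each other in single-nucleus RNA sequencing. In the in vivo groups the brain was taken by craniotomy from an animal under isoflurane, and in the post-mortem groups after cervical dislocation. Every piece was rinsed and then lay 10 min on dry ice, and no extraction took more than 50 mg. The methanol groups were held in 80% methanol at -20 °C for 30 min and then passed through the buffers and the spin of a preservation kit, which the unfixed groups did not see. The 4 groups were in vivo methanol, in vivo unfixed, post-mortem methanol and post-mortem unfixed, with 1 library in each, so every ratio compares libraries, and no test between groups was run. Whether fixed and unfixed nuclei shared a brain is not stated in the labels, so the methanol treatment cannot be told apart from the mouse or the tissue piece used. A brain was taken in 1 way only, so the harvest cannot be told apart from the mouse or the tissue used either.

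In brain, the transmitter cycle runs on these genes. Vesicular carriers load glutamate, GABA or glycine into synaptic vesicles, sodium-coupled carriers of the plasma membrane of glia and neurons clear the released transmitter, and amino acid carriers return glutamine to neurons. Other families set the chloride, bicarbonate, calcium and proton content of the cells, bring in glucose and lactate, distribute zinc and iron, and exchange phosphate, nucleotides and amino acids across the inner mitochondrial membrane. Many of them are textbook markers of a cell type, so their levels in a nuclear library also reflect which nuclei were captured. In sums over all nuclei, fewer nuclei of a type and less RNA per nucleus cannot be told apart.

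Promoter sequences are shown for the members that were at least 1.5-fold higher in the methanol library of both harvest pairs (values below), as the members that moved together most clearly. RefSeq promoter windows of build GRCm38.p6 were matched for 5 of these 6 genes. The 3 printed are those whose 250 bases before the start held no exon of a protein-coding gene. Capitals mark a GC box (GGGCGG or its reverse complement CCGCCC) or a TATA match (TATAAA or TTTATA), and the strand is that of the gene. Slc25a5, a mitochondrial ADP/ATP carrier, starts after chrX:36795347-36795596 on the plus strand, with 1 GC box. Slc32a1, the carrier that loads GABA and glycine into vesicles, starts after chr2:158610508-158610757 on the plus strand, with neither motif. Slc50a1, a sugar carrier, starts before chr3:89270571-89270820 on the minus strand, with neither motif.
Slc25a5: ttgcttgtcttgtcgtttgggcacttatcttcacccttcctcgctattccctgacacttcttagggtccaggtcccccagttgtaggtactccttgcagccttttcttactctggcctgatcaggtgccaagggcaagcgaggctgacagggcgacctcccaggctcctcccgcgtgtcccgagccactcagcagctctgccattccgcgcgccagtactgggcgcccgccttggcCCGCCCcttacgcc
Slc32a1: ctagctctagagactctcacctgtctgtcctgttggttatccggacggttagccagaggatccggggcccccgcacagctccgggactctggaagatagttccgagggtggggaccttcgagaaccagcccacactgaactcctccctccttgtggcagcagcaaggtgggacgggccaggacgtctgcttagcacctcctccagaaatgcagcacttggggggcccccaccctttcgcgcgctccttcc
Slc50a1: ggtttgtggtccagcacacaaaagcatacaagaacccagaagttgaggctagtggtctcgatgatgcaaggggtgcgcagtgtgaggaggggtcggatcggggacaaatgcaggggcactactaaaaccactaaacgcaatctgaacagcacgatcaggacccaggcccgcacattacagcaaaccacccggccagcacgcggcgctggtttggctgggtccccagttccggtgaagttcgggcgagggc
Of the members, 119 were matched, with 158 windows. A GC box was present in 59.5% of these windows, in 56.9% of the windows of all genes tested and in 32.7% of all promoter windows of the table, and TATA matches in 6.33%, 5.99% and 12.4%. The palindrome CACGTG was present in 13.9% of the members' windows, in 8.32% of those of all genes tested and in 6.02% of all windows. These are matches of letters and show no binding.

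The libraries held 7650 barcodes (in vivo methanol), 17862 (in vivo unfixed), 10843 (post-mortem methanol) and 14483 (post-mortem unfixed), and between 64312917 and 82408017 UMIs each. Median UMIs per barcode were 8378 and 6511 in the methanol libraries, in vivo and post-mortem, and 3204 and 3968 in the unfixed ones. Any pair of libraries shared 61 to 210 barcode sequences, at most 1.450% of the smaller library. Every member had at least 527 UMIs in every library, so the counting intervals of library sums are narrow. They cover counting error only, not differences between animals or preparations. A gene was compared when its mean level was at least 10 CPM, which 9801 genes met. All 149 members meet this by construction.

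Sodium-calcium exchangers took the most UMIs. A 3' kit counts captured ends and the counts are not scaled to gene length, so the values rank UMIs and not molecules per gene. Slc24a2, a potassium-dependent sodium-calcium exchanger, had 691.3 CPM in the in vivo methanol library, 832.6 CPM in the in vivo unfixed one, 795.0 CPM in the post-mortem methanol one and 894.9 CPM in the post-mortem unfixed one. Slc8a1, the sodium-calcium exchanger without potassium, had 877.0, 781.4, 649.6 and 543.2 CPM in the same libraries in the same order. Slc24a2 was lowest in the in vivo methanol library, where Slc8a1 was highest. Next came Slc2a13, a proton-coupled myo-inositol carrier, with a mean of 389.4 CPM, Slc4a10, a sodium-driven bicarbonate carrier of neurons, with 310.1 CPM, Slc1a2, the main glutamate uptake carrier of astrocytes, with 261.5 CPM, and Slc4a4, a sodium bicarbonate cotransporter, with 257.5 CPM.

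The median member had 30.83 CPM, against 35.13 CPM for all genes tested. At or above 100 CPM stood 26 members, below 20 CPM stood 46, and the 10 highest held 37.2% of the summed level. Just inside the threshold were Slc16a14 with 10.71 CPM, Slc16a1, the lactate carrier MCT1, with 10.07 CPM, and Slc41a1, a magnesium carrier, with 10.04 CPM. Just outside it were Slc26a4, the anion exchanger pendrin, with 9.621 CPM, Slc25a39 with 9.507 CPM and Slc22a4 with 9.285 CPM. Several carriers that define small neuron groups also stayed below it. Slc5a7, the choline uptake carrier of cholinergic terminals, had 5.425 CPM, and Slc18a2, which loads monoamines into vesicles, had 4.430 CPM. The uptake carriers of serotonin (Slc6a4), dopamine (Slc6a3) and noradrenaline (Slc6a2) had 0.1393, 0.1248 and 0.1001 CPM.

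**Figure D1:**
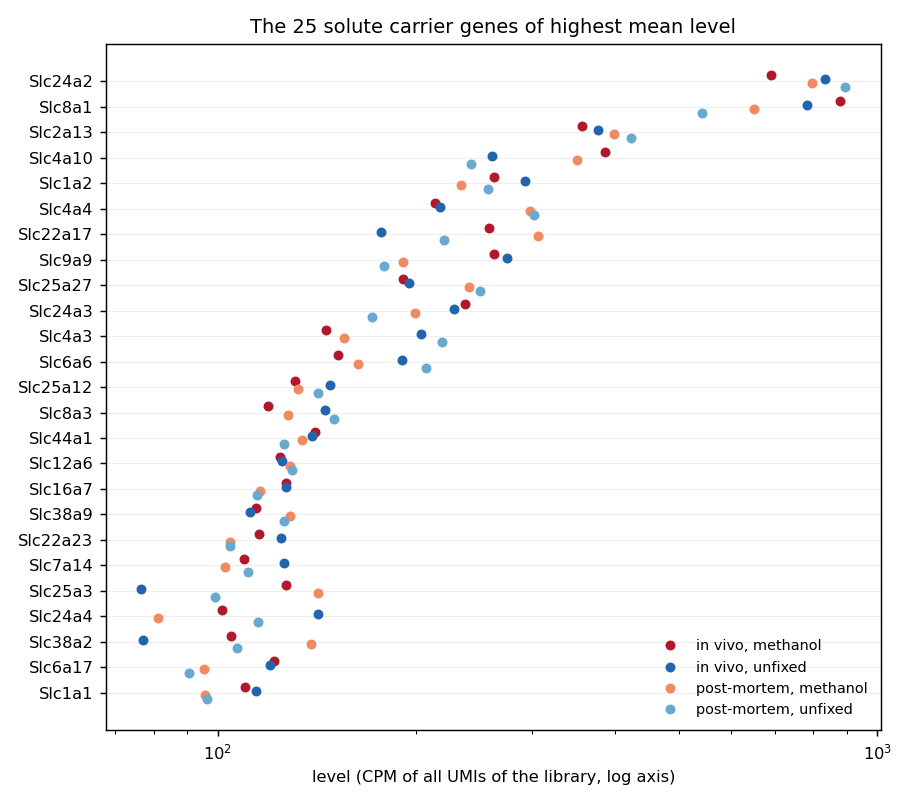
Levels of the 25 members of highest mean level, in CPM on a log axis, with 1 point per library (dark red, in vivo methanol; dark blue, in vivo unfixed; orange, post-mortem methanol; light blue, post-mortem unfixed). Slc24a2 and Slc8a1 lie between 543.2 and 894.9 CPM, and genes such as Slc4a10 and Slc25a3 have both methanol points to the right of both unfixed ones.

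Summed over the members, solute carriers took 9802 CPM in the in vivo methanol library, 9752 in the in vivo unfixed, 9885 in the post-mortem methanol and 9637 in the post-mortem unfixed one, so the sum differed little between libraries. By role, the 7 sodium-calcium exchangers held the most (2109, 2236, 1943 and 1983 CPM in that order), followed by the 29 mitochondrial carriers (1227, 1143, 1357 and 1291 CPM). The 5 glutamate and neutral amino acid carriers of family 1 held 463.8, 508.0, 421.5 and 442.3 CPM. The 4 vesicular and lysosomal transmitter carriers held 201.4, 182.3, 208.6 and 187.9 CPM, with both methanol libraries above both unfixed ones.

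Methanol was compared with no fixation inside each harvest, and a call needed a change of 2-fold or more, in one direction, in each of the pairs. No member was called higher and none lower. Over all genes tested, the same rule called 0.265% higher and 2.28% lower. The members' log2 ratios ran from -0.52 to 0.89 in the in vivo pair and from -0.57 to 0.79 in the post-mortem pair, while all genes tested reached from -2.45 to 1.70 and from -2.36 to 1.63. Median ratios of the members were 0.018 in vivo and 0.056 post-mortem, against -0.023 and -0.021 for all genes tested. In both pairs 74 members were higher after methanol (49.7%, against 41.2% of all genes tested), 58 were lower (38.9%, against 47.1%) and 17 had opposite signs (11.4%, against 11.8%). Counting error does not span these differences for most members: 51 had an interval above 0 in both pairs (34.2%, against 32.1% of all genes tested) and 45 an interval below 0 in both (30.2%, against 37.3%).

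At 1.5-fold in both pairs, 6 members were higher after methanol (4.03% of members, against 3.45% of all genes tested) and none was lower (against 4.40%). They were singled out after their values were seen. Slc39a7, a zinc carrier of the endoplasmic reticulum, had 24.93 CPM in the in vivo methanol and 13.40 CPM in the in vivo unfixed library, and 32.23 CPM in the post-mortem methanol and 19.00 CPM in the post-mortem unfixed one. Its log2 ratios were 0.89 (95% interval 0.78 to 1.01) in vivo and 0.76 (0.66 to 0.86) post-mortem. Both methanol libraries stood above both unfixed ones. Slc50a1 had 68.23 CPM with methanol and 38.94 CPM without in vivo, and 89.59 CPM with and 55.98 CPM without post-mortem, log2 ratios of 0.81 (0.74 to 0.88) and 0.68 (0.62 to 0.74). Slc32a1 had 41.83 CPM with methanol and 26.04 CPM without in vivo, and 70.24 CPM with and 41.73 CPM without post-mortem, ratios of 0.68 (0.60 to 0.77) and 0.75 (0.68 to 0.82). For this GABA carrier the post-mortem unfixed library was level with the in vivo methanol one, so the methanol and unfixed libraries do not separate as groups. Slc30a3, which fills synaptic vesicles with zinc, had ratios of 0.68 (0.57 to 0.78) in vivo and 0.60 (0.48 to 0.72) post-mortem. These ratios depend on which nuclei make up the sum. With the named classes weighted equally, Slc32a1 had 0.05 and 0.10, and Slc30a3 turned to -0.34 in vivo and had 0.09 post-mortem. In inhibitory neuron-like and in medium spiny neuron-like nuclei Slc32a1 was higher after methanol in both pairs (values below). Slc7a4, a relative of the cationic amino acid carriers, had 0.75 and 0.79, and Slc25a5 had 0.59 and 0.65.

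Mitochondrial carriers were the largest role group. After methanol 19 of the 29 were higher in both pairs (against 41.2% of all genes tested) and 10 were lower (against 47.1%), with medians of 0.12 in vivo and 0.10 post-mortem. None passed 2-fold. The higher ones included the abundant housekeeping carriers. Slc25a3, the mitochondrial phosphate carrier, had 126.8 CPM with methanol and 76.59 CPM without in vivo, and 142.1 CPM with and 99.23 CPM without post-mortem, ratios of 0.73 and 0.52. With the named classes weighted equally these ratios were 0.36 and 0.27. Slc25a4, the heart and muscle form of the ADP/ATP carrier, which brain also expresses, had 64.39 and 41.85 CPM in vivo and 71.90 and 53.92 CPM post-mortem. The lower ones included Slc25a25, a calcium-regulated ATP-magnesium carrier, at -0.49 and -0.50, and Slc25a23, of the same kind, at -0.28 and -0.32. All 4 nucleotide sugar carriers of the Golgi were higher in both pairs (against 41.2% of all genes tested), with medians of 0.22 in vivo and 0.25 post-mortem. Of 21 metal carriers 11 were higher (against 41.2%) and 6 lower (against 47.1%).

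Ion exchangers leaned the other way in count. Of the 7 sodium-calcium exchangers 5 were lower after methanol in both pairs (against 47.1% of all genes tested) and 2 higher (against 41.2%), with medians of -0.27 in vivo and -0.17 post-mortem. Slc24a4, a potassium-dependent exchanger, had 101.4 CPM with methanol and 142.2 CPM without in vivo, and 81.28 CPM with and 115.0 CPM without post-mortem, ratios of -0.49 and -0.50. Slc4a3, a chloride-bicarbonate exchanger of neurons, had 145.8 and 203.2 CPM in vivo and 155.6 and 219.0 CPM post-mortem, ratios of -0.48 and -0.49. In the same family, Slc4a10 went the other way, with 386.8 and 260.4 CPM in vivo and 350.9 and 242.4 CPM post-mortem, ratios of 0.57 and 0.53. Family 4 thus held members with ratios of opposite sign that were nearly equal in both pairs. Of the 4 cation-chloride cotransporters 3 were lower in both pairs (against 47.1% of all genes tested), with ratios between -0.27 and -0.01, and Slc12a2, the chloride importer NKCC1, was higher, at 0.20 and 0.45.

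For glutamate carriers the ratios depended on which nuclei made up the sum. Slc1a2 had 262.4 and 292.6 CPM in vivo and 233.9 and 256.9 CPM post-mortem, ratios of -0.16 and -0.14, the first of which was 0.12 with the named classes weighted equally. Slc17a7, the vesicular glutamate carrier of cortical excitatory neurons, had 88.96 and 84.78 CPM in vivo and 61.47 and 71.34 CPM post-mortem, with ratios of 0.07 and -0.21, which were -0.83 and -0.72 with the named classes weighted equally. In excitatory neuron-like nuclei, where Slc17a7 is highest, the ratios were 0.09 and -0.24, against -2.06 and -1.94 over the other compared classes. Slc17a6, the vesicular glutamate carrier of thalamus and other subcortical regions, had 14.16 and 9.391 CPM in vivo and 21.30 and 14.82 CPM post-mortem, ratios of 0.59 and 0.52. With the named classes weighted equally the sign of Slc17a6 turned, to -1.24 and -1.10. That mean covers the 7 compared classes only and leaves out small classes and unnamed nuclei. Among those left out are thalamic neuron-like nuclei, where Slc17a6 had 277.2 CPM, against 11.92 CPM in the other nuclei. The turned sign therefore describes classes with little Slc17a6.

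**Figure D2:**
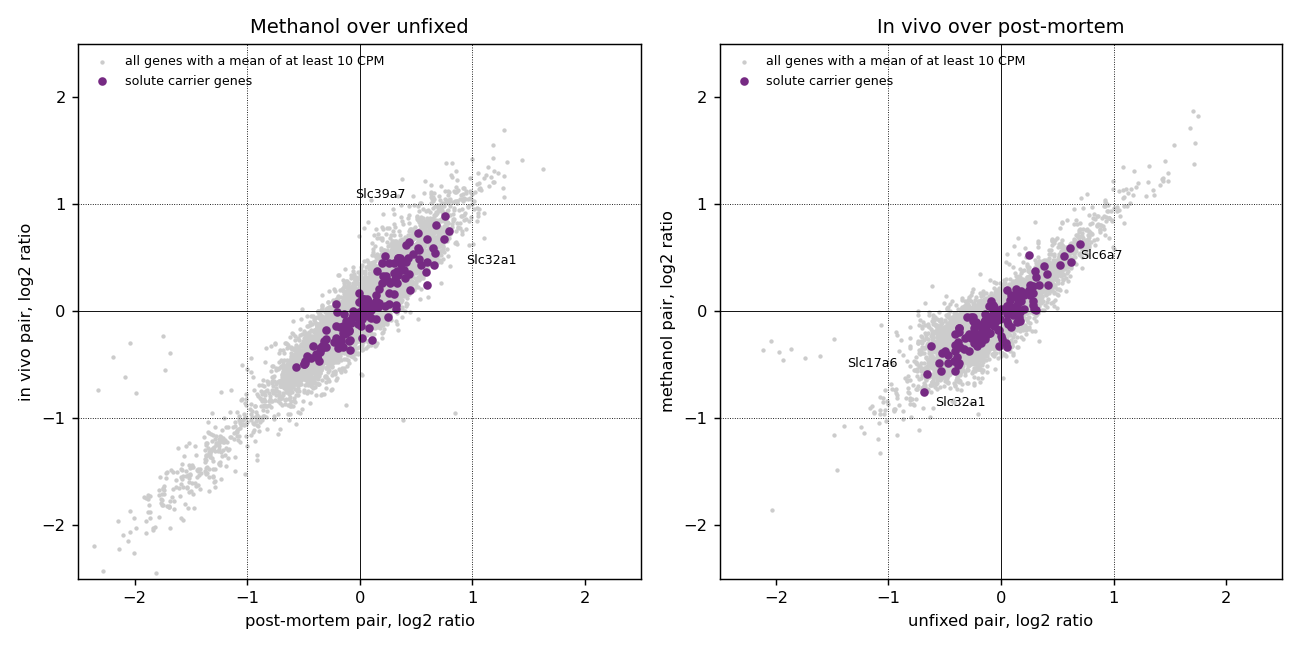
Each point is a gene, with its log2 ratio in one pair against the other (left, methanol over unfixed; right, in vivo over post-mortem), members in purple and all 9801 genes tested in grey. Dotted lines mark 2-fold. No member lies beyond 2-fold in both pairs in either panel, and 4 grey genes lie outside the axes of the right panel.

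Gene span moved with the fixation ratio. The 50 members with the shortest spans (2.33 to 23.9 kb) had median ratios of 0.30 in vivo and 0.21 post-mortem, with 34 higher and 12 lower in both pairs. The 50 with the longest spans (57.2 to 561 kb) had medians of -0.08 and -0.01, with 15 higher and 27 lower. All genes tested in these ranges had medians of 0.11 and 0.04 for the short range and -0.10 and -0.05 for the long one. Of all genes tested, of any span, 41.2% were higher and 47.1% lower in both pairs. Over the 149 members Spearman's rank correlation of span with the ratio was -0.39 in vivo and -0.28 post-mortem, and over all genes tested -0.30 and -0.16. These are descriptions across genes that share the same libraries. Of the 6 members at 1.5-fold, 4 span under 5 kb: Slc50a1 (2.325 kb), Slc25a5 (3.157 kb), Slc39a7 (3.414 kb) and Slc32a1 (4.982 kb). The part of span, of intronic reads or of priming in these ratios was not tested.

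Harvest was compared in vivo over post-mortem, within the unfixed and within the methanol libraries. No member was 2-fold higher or lower in both pairs, against 0.347% and 0.112% of all genes tested. Medians of the members were -0.094 in the methanol pair and -0.074 in the unfixed pair, near those of all genes tested (-0.087 and -0.095). In both pairs 47 members were higher in vivo (31.5%, against 26.6% of all genes tested) and 83 lower (55.7%, against 59.2%), so the lean to lower values is that of all genes. At 1.5-fold, 2 members were higher, among them Slc6a7 (against 1.67% of all genes tested), and Slc17a6 and Slc32a1 were lower (against 1.06%).

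Slc6a7, the proline uptake carrier of glutamatergic terminals, had 50.14 CPM in vivo and 33.31 CPM post-mortem with methanol, and 48.54 and 31.80 CPM without, log2 ratios of 0.59 (0.52 to 0.66) and 0.61 (0.53 to 0.69). Both in vivo libraries stood above both post-mortem ones. Among the excitatory markers, Slc17a7 was also higher in vivo, at 0.53 with methanol and 0.25 without. Slc32a1 had ratios of -0.75 (-0.81 to -0.68) with methanol and -0.68 (-0.77 to -0.59) without, and Slc17a6 -0.59 and -0.66. Slc4a4, the bicarbonate carrier that is high in astrocytes, had 213.4 CPM in vivo and 297.2 CPM post-mortem with methanol, and 217.6 and 301.8 CPM without, ratios of -0.48 and -0.47. Slc9a9, an endosomal sodium-proton exchanger, had 262.5 and 191.0 CPM with methanol and 274.2 and 178.8 CPM without. Its ratios were 0.46 and 0.62.

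The makeup of the libraries moved with harvest. Excitatory neuron-like nuclei made up 23.1% and 22.4% of kept nuclei in the in vivo methanol and unfixed libraries, against 20.2% and 19.4% in the post-mortem ones. Medium spiny neuron-like nuclei, the GABA neurons of the striatum, made up 17.4% and 18.1% in vivo, against 21.9% and 25.1% post-mortem. Inhibitory neuron-like nuclei, where Slc32a1 is highest, made up 5.08% and 5.12% in vivo, against 5.07% and 4.41% post-mortem. Thalamic neuron-like nuclei, where Slc17a6 is high, made up 1.19% and 0.995%, against 1.12% and 0.737%. Other library-wide values also differed between harvests. Summed levels of 5 red cell markers were 50.94 and 103.8 CPM in the in vivo libraries (methanol, unfixed), against 19.85 and 29.53 CPM in the post-mortem ones, and 13 mitochondrially encoded genes summed to 245.6 and 353.6 CPM, against 319.4 and 1209 CPM. Eif2s3y, a Y-linked gene, had 74 and 44 UMIs in vivo, against 10194 and 5371 post-mortem, while the Y-linked Ddx3y was present throughout with 2256 and 1377 UMIs, against 3656 and 2157. The part of these differences in the members' ratios was not tested.

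Of the 29 mitochondrial carriers 22 were lower in vivo in both pairs, as were 59.2% of all genes tested, and 3 were higher, with medians of -0.12 with methanol and -0.21 without. All 4 nucleotide sugar carriers were also lower. Short genes leaned the same way: among the 50 members of shortest span 38 were lower in both pairs and 5 higher, among the 50 of longest span 12 were lower and 31 higher. Of all genes tested, of any span, 59.2% were lower and 26.6% higher. The rank correlation of span with the harvest ratio was 0.45 with methanol and 0.54 without, close to the 0.39 and 0.56 of all genes tested.

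Nuclei were then grouped without using any solute carrier gene, so that the classes did not depend on the members. After filters and removal of called doublets 6811, 15081, 9809 and 12483 nuclei were kept in the in vivo methanol, in vivo unfixed, post-mortem methanol and post-mortem unfixed libraries, of which 27.3% to 32.6% stayed unnamed. The label calls the cells neurons and glia, and classes with markers of both were found. Names rest on these markers and are marked as likenesses. The 7 classes with at least 100 nuclei in every library were compared. Oligodendrocyte precursor-like nuclei were the fewest (139 to 281 per library) and excitatory neuron-like nuclei the most in 2 libraries (1573 to 3385 over the 4 libraries). Members took 1.73% to 2.08% of the UMIs of astrocyte-like nuclei, 1.31% to 1.43% of those of oligodendrocyte-like nuclei and 0.852% to 1.130% of those of the other 5 classes.

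A member's class was the one with its highest level, averaged over libraries. Microglia-like nuclei were highest for 35 members, inhibitory neuron-like for 31, astrocyte-like for 27, oligodendrocyte-like for 21, excitatory neuron-like for 15, medium spiny neuron-like for 13 and oligodendrocyte precursor-like for 7. For 88 members that class was the highest in all 4 libraries, among them 21 of the 35 of microglia-like nuclei. At resolution 2.0, 135 of 149 members kept their class. At resolution 0.5 it was 127, and with nuclei of at least 1000 UMIs clustered anew 98, of the 128 members whose class was still found. All genes were not counted by this rule, so these counts are a description. At least 50% of the level, summed over the 7 classes, lay in 1 class for 20 members (13.4%, against 9.16% of all genes tested). This list of 20 was made after the data were seen.

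Astrocyte-like nuclei held 9 of these 20. Slc7a11, the cystine-glutamate exchanger, had 96.0% of its class levels there, and its 4 values did not overlap those of the other compared classes, which leave out fibroblast-like nuclei. Slc6a11, the glial GABA uptake carrier GAT3, had 88.6%, the zinc carrier Slc39a12 88.4%, and the glutamate uptake carriers Slc1a2 and Slc1a3 85.8% and 80.0%. Slc1a2 had 6586 and 5764 CPM in the in vivo methanol and unfixed astrocyte-like nuclei, and 5088 and 5684 CPM in the post-mortem ones. Oligodendrocyte-like nuclei were highest for Slc25a13, the aspartate-glutamate carrier citrin (64.4%), Slc24a2 (63.5%) and Slc12a2 (57.8%). Slc24a2, highest of all members in the summed libraries, had 4356 and 4709 CPM in the in vivo and 3862 and 4211 CPM in the post-mortem oligodendrocyte-like nuclei, in the order methanol, unfixed. Microglia-like nuclei held 76.0% of Slc16a6, 62.5% of Slc7a8, a carrier of large neutral amino acids, and 50.7% of Slc25a37, the mitochondrial iron importer mitoferrin.

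Neuronal classes shared more. Slc17a7 had 60.4% of its class levels in excitatory neuron-like nuclei, Slc44a5, of the choline carrier-like family, 52.9% in inhibitory neuron-like nuclei, and Slc24a4 53.0% in medium spiny neuron-like nuclei. Slc32a1 was spread over both GABA classes, with 43.1% in inhibitory neuron-like nuclei, where its values overlapped those of another class. Slc1a1, the neuronal glutamate and cysteine carrier EAAC1, was highest in oligodendrocyte precursor-like nuclei, at 43.5%. Slc16a6 overlaps Amz2 on the other strand, which had 2.497 times its level, and the strand setting of the counting is not given in the sources used here, so its reads may be those of Amz2. Such an overlap was present for 47 members (31.5%, against 40.2% of all genes tested), and 8 of these partners were higher than the member.

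**Figure D3:**
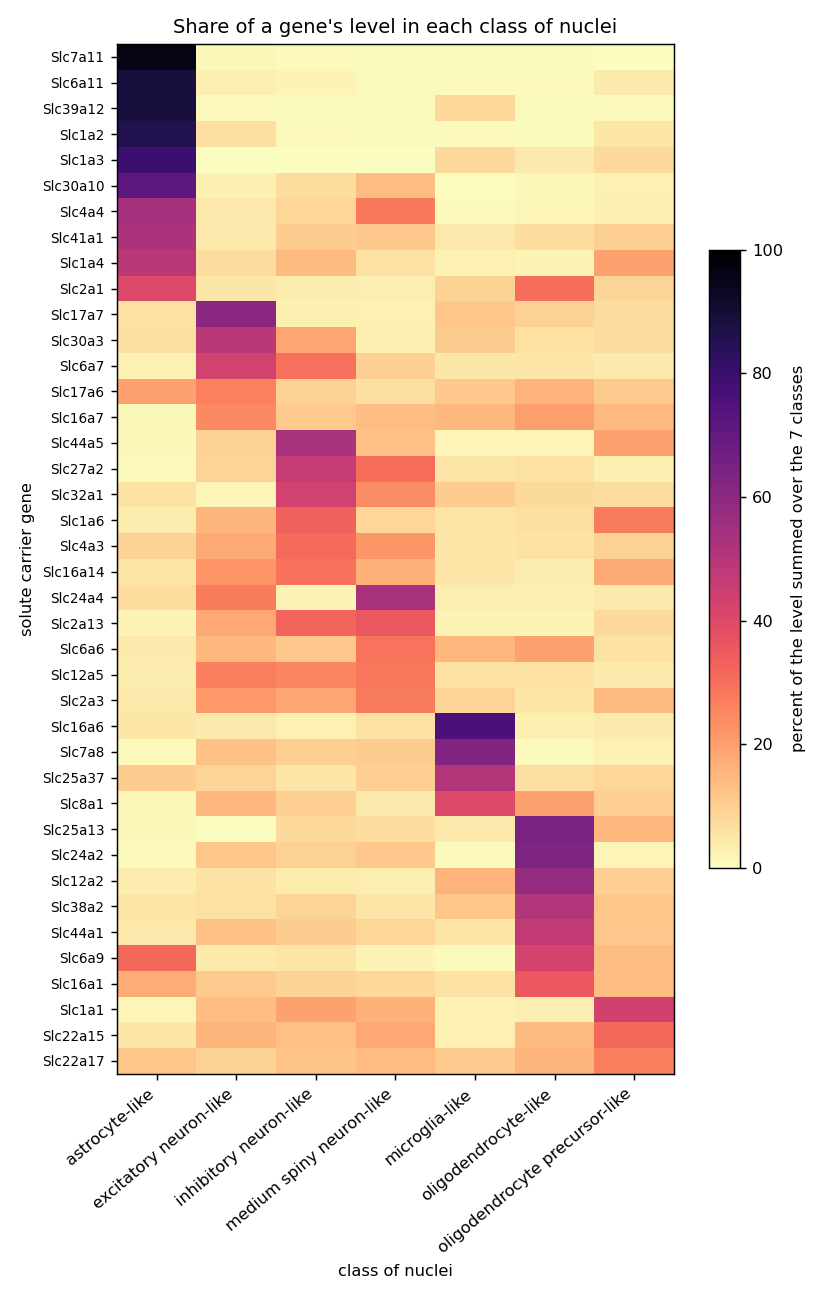
Share of each gene's level in each of 7 classes of nuclei, as a percent of its level summed over the classes and averaged over the 4 libraries (dark, high), for named members in rows. Slc7a11 reaches 96.0% in astrocyte-like nuclei, Slc16a6 76.0% in microglia-like nuclei and Slc17a7 60.4% in excitatory neuron-like nuclei, while genes such as Slc16a7 are spread.

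The 4 small classes with under 100 nuclei in some library are given as sums over libraries only. In 176 endothelial-like nuclei Slc2a1, the glucose carrier of the blood-brain barrier, had 944.6 CPM (Poisson 95% interval 852.9 to 1043), against 10.57 CPM in the other nuclei. In 180 fibroblast-like nuclei Slc38a2, a neutral amino acid carrier, had 2203 CPM, against 105.2 CPM, and Slc7a11 2134 CPM, against 8.721 CPM, above its level in astrocyte-like nuclei. In 433 thalamic neuron-like nuclei Slc17a6 had 277.2 CPM (259.2 to 296.1), against 11.92 CPM. In 176 cholinergic neuron-like nuclei Slc7a14, a lysosomal carrier, had 1141 CPM, against 105.3 CPM.

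Within classes, fixation ratios of the members were wider than in the sums. Oligodendrocyte-like nuclei had 18 members at least 2-fold lower after methanol in both pairs, 15.3% of 118 tested, against 10.6% of all genes tested. Microglia-like nuclei had 7 of 76 (9.21%, against 6.98%). These counts depend on the nuclei taken: clustering at resolution 2.0 left 9 in oligodendrocyte-like nuclei, and keeping only microglia-like nuclei of at least 1000 UMIs left 1 of 38. Astrocyte-like nuclei had 2 of 98 lower, Slc24a2 and Slc2a13 (against 2.99%). In excitatory neuron-like, inhibitory neuron-like, medium spiny neuron-like and oligodendrocyte precursor-like nuclei none was lower (against 2.30%, 1.65%, 2.75% and 1.36%). These shares lay near those of all genes and are read as no result about the members.

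The 18 lower members of oligodendrocyte-like nuclei included carriers of neurons and astrocytes. The level filter is a mean over the 4 libraries, for members and all genes alike. Some members, such as Slc17a7, passed it only through the unfixed libraries, where they are high, so they could be called lower but not higher. Slc17a7 had 5 UMIs (5.205 CPM) with methanol and 104 UMIs (68.71 CPM) without in vivo, and 8 UMIs (4.619 CPM) with and 41 UMIs (27.32 CPM) without post-mortem. Its log2 ratios were -3.59 (-5.38 to -2.45) and -2.49 (-3.87 to -1.45). Slc1a2 had 14.57 and 81.26 CPM in vivo and 19.63 and 55.31 CPM post-mortem, ratios of -2.43 and -1.48. Slc4a4 had 7.287 and 56.15 CPM in vivo and 12.70 and 124.0 CPM post-mortem. Slc12a5, the chloride extruder KCC2 of neurons, had 10.41 and 38.32 CPM in vivo and 5.774 and 25.99 CPM post-mortem. In astrocyte-like nuclei, where it is highest, Slc4a4 differed far less, with 1325 and 1168 CPM in vivo and 1651 and 1357 CPM post-mortem.

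Microglia-like nuclei were read on fewer UMIs. Their 7 lower members were Slc17a7, Slc1a2, Slc22a17, Slc24a2, Slc32a1, Slc4a3 and Slc4a4. Of these, Slc32a1, Slc4a3 and Slc4a4 had under 10 CPM in both methanol libraries and passed the level filter only through the unfixed ones. Slc24a2 had 7 UMIs (20.29 CPM) with methanol and 76 UMIs (153.2 CPM) without in vivo, and 13 UMIs (28.03 CPM) with and 45 UMIs (104.5 CPM) without post-mortem, ratios of -2.83 (-4.28 to -1.80) and -1.86 (-2.91 to -0.98). Slc22a17, a surface receptor for lipocalin, rested on the most UMIs, with 101.5 and 276.2 CPM in vivo and 122.9 and 329.9 CPM post-mortem, ratios of -1.43 and -1.42. Carriers that are high in microglia-like nuclei had other ratios: Slc8a1 had 2705 and 1901 CPM in vivo and 2072 and 1649 CPM post-mortem, and Slc7a8 had ratios of -0.03 and -0.02.

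Slc32a1 had opposite signs in different classes. In medium spiny neuron-like nuclei it had 95.17 CPM with methanol and 42.88 CPM without in vivo, and 108.0 CPM with and 52.87 CPM without post-mortem, ratios of 1.15 (0.98 to 1.33) and 1.03 (0.90 to 1.16). It was the 1 member of 127 at least 2-fold higher there (against 0.899% of all genes tested). In inhibitory neuron-like nuclei it had 142.6 and 83.38 CPM in vivo and 207.6 and 100.4 CPM post-mortem, ratios of 0.77 and 1.05. In oligodendrocyte-like nuclei its ratios were -2.10 and -2.12, and in astrocyte-like nuclei -3.40 (-9.32 to -1.35) and -0.62 (-1.89 to 0.56). In excitatory neuron-like nuclei it had 34 UMIs (1.594 CPM) with methanol and 103 UMIs (5.921 CPM) without in vivo, and 108 UMIs (5.171 CPM) with and 158 UMIs (10.22 CPM) without post-mortem, ratios of -1.88 and -0.98. In microglia-like nuclei the ratio was -2.77 in both pairs, on 2 and 24 UMIs in vivo and on 4 and 28 UMIs post-mortem. No member was 2-fold higher with methanol in excitatory neuron-like (against 0.949%), inhibitory neuron-like (against 0.459%), microglia-like (against 1.87%) or oligodendrocyte precursor-like nuclei (against 1.02%).

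**Figure D4:**
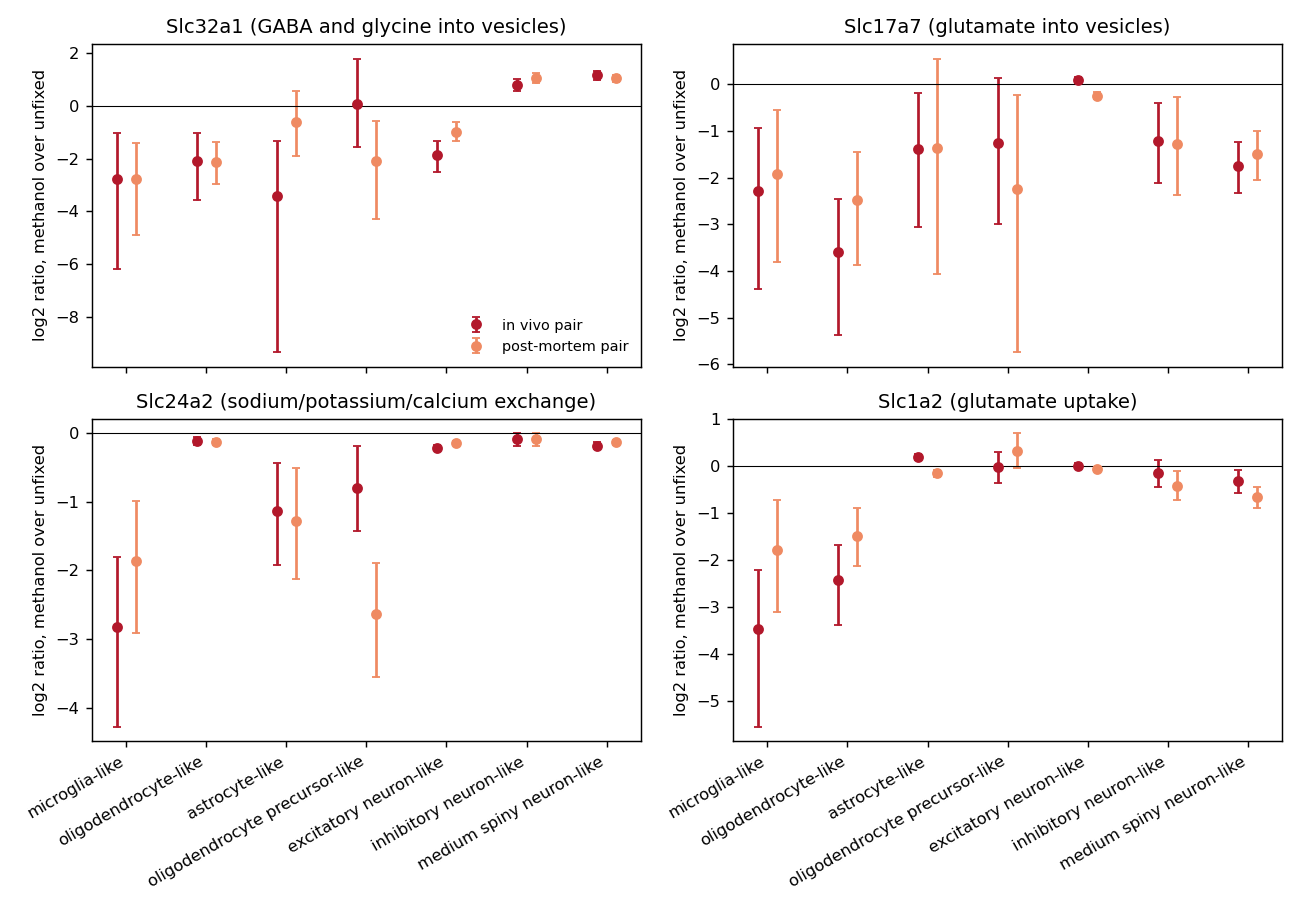
Log2 ratio, methanol over unfixed, of 4 members in each of 7 classes of nuclei (dark red, in vivo pair; orange, post-mortem pair), with bars for exact 95% counting intervals. Slc32a1 lies above 0 in inhibitory and medium spiny neuron-like nuclei and at -2.77 in microglia-like nuclei, and Slc17a7, Slc24a2 and Slc1a2 lie between -0.24 and 0.19 in the class where each is highest and lower in microglia-like nuclei.

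Astrocyte-like nuclei had 3 of 98 members at least 2-fold higher after methanol in both pairs (against 1.84% of all genes tested). Slc2a1 had 45 UMIs (95.12 CPM) with methanol and 18 UMIs (23.65 CPM) without in vivo, and 109 UMIs (152.9 CPM) with and 14 UMIs (20.96 CPM) without post-mortem, log2 ratios of 1.98 (1.19 to 2.88) and 2.82 (2.06 to 3.78). Slc3a2, the shared heavy chain of several amino acid exchangers including that of Slc7a11, had 304.4 and 102.5 CPM in vivo and 410.9 and 83.85 CPM post-mortem, ratios of 1.57 (1.16 to 1.99) and 2.28 (1.88 to 2.73). Slc6a9, the glycine uptake carrier GlyT1, had 63.41 and 23.65 CPM in vivo and 109.4 and 31.44 CPM post-mortem, ratios of 1.41 and 1.77. For all 3 genes both methanol libraries stood above both unfixed ones. Slc7a11 itself had 549.6 and 335.0 CPM in vivo and 531.5 and 342.9 CPM post-mortem, ratios of 0.71 and 0.63. Slc2a1 was also the 1 member of 118 that was 2-fold higher in oligodendrocyte-like nuclei (against 0.915%), with 68.71 and 31.71 CPM in vivo and 85.45 and 33.99 CPM post-mortem.

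Marker sums in astrocyte-like nuclei also differed between methanol and unfixed libraries, in both directions. The 10 endothelial markers summed to 4.227 and 21.02 CPM in vivo and 9.816 and 11.98 CPM post-mortem in astrocyte-like nuclei (methanol, unfixed), with 2 of them at 0 throughout. These sums rest on 2 and 16 UMIs in vivo and on 7 and 8 UMIs post-mortem, and their part in the ratio of Slc2a1 was not tested. The 7 fibroblast markers summed to 228.3 and 197.0 CPM in vivo and 158.5 and 151.2 CPM post-mortem in astrocyte-like nuclei. In microglia-like nuclei, the next highest compared class, they summed to 17.39 to 19.41 CPM. Slc7a11, Slc38a2 and Slc1a3 are high in fibroblast-like nuclei, and the part of such nuclei in their astrocyte-like levels and ratios was not tested. The 11 astrocyte markers themselves summed to 3828 and 2110 CPM in vivo and 4148 and 2555 CPM post-mortem, and the 8 excitatory neuron markers in the same nuclei to 21.14 and 98.52 CPM in vivo and 33.66 and 56.90 CPM post-mortem. Astrocyte-like nuclei had median UMIs of 2116 and 1222 in vivo and 2028 and 1889 post-mortem. The part of this depth in the ratios was not tested.

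Several of the members that were lower in glia-like nuclei are known from neurons, and a list of 17 members at least 3-fold higher in neuronal than in glial classes was made after the data were seen. It holds Slc12a5, Slc16a11, Slc24a4, Slc26a8, Slc27a2, Slc2a13, Slc30a3, Slc37a1, Slc44a5, Slc45a1, Slc4a10, Slc4a3, Slc6a15, Slc6a17, Slc6a7, Slc7a14 and Slc8a2. In microglia-like nuclei these genes summed to 32 UMIs (92.77 CPM) with methanol and 274 UMIs (552.4 CPM) without in vivo, and to 62 UMIs (133.7 CPM) with and 162 UMIs (376.3 CPM) without post-mortem. Log2 ratios were -2.55 (-3.15 to -2.04) and -1.49 (-1.94 to -1.06), and 15 of the 17 were lower in both pairs (against 2136 of 6474 genes tested in this class). Clustering only nuclei of at least 1000 UMIs anew gave -0.46 and 0.50 for a class that took in a mixed cluster, while deeper nuclei of the same class gave -2.92 and -1.65. In oligodendrocyte-like nuclei the 17 summed to 137.4 and 523.2 CPM in vivo and 183.0 and 454.5 CPM post-mortem, ratios of -1.92 and -1.31. In both pairs 17 of 17 were lower (against 4340 of 9288 genes tested in this class), and at resolution 2.0 the ratios were -1.35 and -0.99. In astrocyte-like nuclei the sums were 181.8 and 478.2 CPM in vivo and 193.5 and 318.9 CPM post-mortem, with 13 of 17 lower in both (against 3216 of 7732 genes tested there). The 17 were counted without the level filter that the genes tested had passed, and most of them did not meet it in microglia-like nuclei. Slc27a2, for example, had 0 and 1 UMIs in vivo and 1 and 2 UMIs post-mortem there (methanol, unfixed), so such signs rest on few UMIs. No list of all genes was made by the same 3-fold cut, and the 17 were chosen from the same class sums. These counts are therefore a description.

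In the neuronal classes the ratios of the same sums lay between -0.12 and 0.02. The sums were 1778 and 1758 CPM in vivo and 1736 and 1755 CPM post-mortem in excitatory neuron-like nuclei, 2164 and 2187 CPM and 1996 and 1981 CPM in inhibitory neuron-like nuclei, and 1944 and 2109 CPM and 1790 and 1911 CPM in medium spiny neuron-like nuclei. Oligodendrocyte precursor-like nuclei had 723.5 and 675.3 CPM in vivo and 659.8 and 770.8 CPM post-mortem, ratios of 0.10 (-0.13 to 0.33) and -0.22 (-0.46 to 0.02). This class differed from the other glial classes in the value of the ratio, with intervals that do not overlap those of microglia-like or oligodendrocyte-like nuclei in either pair, but overlap that of astrocyte-like nuclei post-mortem.

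**Figure D5:**
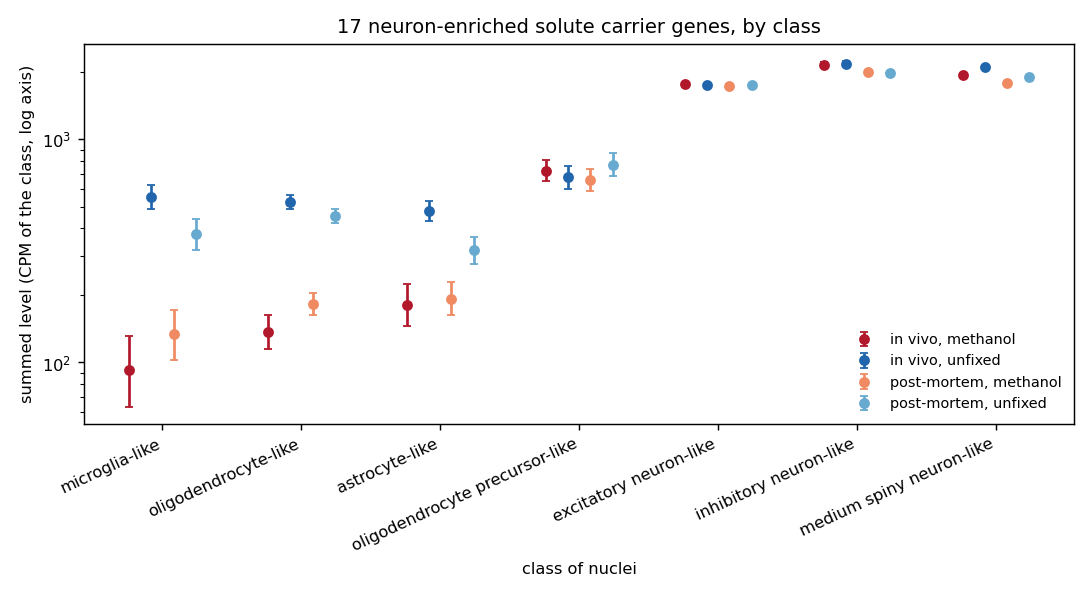
Summed level of the 17 neuron-enriched members in each class of nuclei, in CPM of the class on a log axis, by library (dark red, in vivo methanol; dark blue, in vivo unfixed; orange, post-mortem methanol; light blue, post-mortem unfixed), with exact Poisson 95% bars. In microglia-like nuclei the methanol libraries lie at 92.77 and 133.7 CPM and the unfixed ones at 552.4 and 376.3 CPM, while all neuronal classes lie between 1736 and 2187 CPM.

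Neuron markers that are no solute carriers moved alongside. The 8 excitatory neuron markers summed to 28.99 and 219.8 CPM in vivo and 47.44 and 104.5 CPM post-mortem in microglia-like nuclei (methanol, unfixed), and to 23.94 and 189.6 CPM in vivo and 26.56 and 79.97 CPM post-mortem in oligodendrocyte-like nuclei, against 865.4 to 1146 CPM in excitatory neuron-like nuclei. Each of the 8 had UMIs in both glial classes. The 11 inhibitory neuron markers were also lower with methanol in microglia-like nuclei (124.7 and 645.2 CPM in vivo, 200.5 and 490.2 CPM post-mortem), but not in oligodendrocyte-like nuclei (1959 and 1858 CPM, and 1886 and 1693 CPM). In oligodendrocyte precursor-like nuclei the 8 excitatory neuron markers were lower with methanol too (31.92 and 107.6 CPM in vivo, 21.99 and 71.32 CPM post-mortem). The 11 inhibitory neuron markers were not (4775 and 4627 CPM, and 4999 and 4564 CPM). The 11 oligodendrocyte markers in microglia-like nuclei also summed to less with methanol, 171.0 and 665.4 CPM in vivo and 319.1 and 836.3 CPM post-mortem. Markers of the own class were higher with methanol: the 11 microglia markers summed to 24401 and 10672 CPM in vivo and 23850 and 12537 CPM post-mortem in microglia-like nuclei, and the 11 oligodendrocyte markers to 32468 and 16503 CPM and 31194 and 17764 CPM in oligodendrocyte-like nuclei. Median UMIs were 1053 and 741 in vivo and 940.5 and 918.5 post-mortem in microglia-like nuclei. The part of RNA from outside the nucleus, of mixed droplets and of depth was not tested.

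The 20 members with at least 50% of their class levels in 1 class were read in and outside that class. In their own class their median ratio was 0.39 in vivo and 0.33 post-mortem, and over the other 6 classes -0.24 and -0.10. For 18 of the 20 (90.0%) the ratio elsewhere was below that in the own class in both pairs, against 652 of 898 genes of the same kind (72.6%). Slc17a7 had 160.6 and 150.9 CPM in vivo and 158.9 and 187.5 CPM post-mortem in excitatory neuron-like nuclei, where it is highest, and a mean of 8.632 and 37.58 CPM in vivo and 5.026 and 20.73 CPM post-mortem over the others. Slc6a11 had ratios of 0.63 and 0.99 in astrocyte-like nuclei and -0.75 and -0.70 elsewhere. Slc38a2 was higher with methanol in both places, with 1.22 and 0.77 in oligodendrocyte-like nuclei and 0.64 and 0.39 elsewhere. Because the share and the ratio come from the same class sums, this contrast is a description.

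Within classes few members passed 2-fold between harvests. In astrocyte-like nuclei 1 of 98 members was 2-fold higher in vivo in both pairs (against 0.530%): Slc38a1, a glutamine carrier, had 88.78 CPM in vivo and 40.67 CPM post-mortem with methanol, and 114.3 and 47.92 CPM without. In excitatory neuron-like nuclei 1 of 131 was lower (against 0.763%): Slc16a6 had 6.376 and 15.56 CPM with methanol, and 7.359 and 16.89 CPM without. Both were named after their values were seen. In excitatory neuron-like nuclei Slc17a7 had ratios of 0.02 with methanol and -0.31 without. Slc32a1 had -0.54 and -0.27 in inhibitory neuron-like and -0.18 and -0.30 in medium spiny neuron-like nuclei, against -0.75 and -0.68 over all nuclei. Some ratios below 2-fold were wider than in the sums. Slc38a2, picked after its values were seen, had 0.85 and 0.87 in astrocyte-like and -0.74 and -0.95 in microglia-like nuclei, against -0.41 and -0.47 over all nuclei. In oligodendrocyte precursor-like nuclei 33 of 78 members were lower in vivo in both pairs and 13 higher, against 1647 and 1618 of 5974 genes tested.

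Partner genes that are no members were read in the same way, and none passed 2-fold in both pairs. Beside the counts below, 41.2% of all genes tested were higher and 47.1% lower after methanol in both pairs, and 59.2% were lower in vivo. Of 6 sodium pump (Na/K-ATPase) subunits, which build the gradient many carriers use, 4 were higher and 1 lower after methanol. Atp1b1, a beta subunit, had 516.1 and 291.6 CPM in vivo and 580.9 and 338.4 CPM post-mortem (methanol, unfixed). Of 17 vacuolar proton ATPase subunits, which energise vesicular carriers, 12 were higher and 5 lower, and 15 were lower in vivo. Of 7 glutamate and GABA enzymes 2 were higher and 4 lower. Of 9 chaperones and regulators tested 5 were higher and 3 lower, and of 8 tested carriers of solute carrier families without such a symbol 4 were higher and 4 lower. Among these Sv2b, a synaptic vesicle protein, had harvest ratios of 0.77 with methanol and 0.76 without.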

How the data were processed

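Nuclei of 4 mouse brain libraries were sequenced with a SeekOne DD droplet 3' kit, per the labels' protocols. The authors deposited raw UMI counts per gene and barcode, and the submitters' processing notes name build mm10. The aligner, cell caller, annotation release and strand setting are not given in the sources used here. Counts were summed per library over all barcodes and divided by the library sum. Log2 ratios had 0.5 counts added to each library's count, and intervals are exact conditional 95% intervals, which cover counting error only. With 1 library per group no test was run, and a called gene differed at least 2-fold in 1 direction in both pairs. The members, gene lists and rules were chosen with earlier results of these data known.

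For classes, barcodes with at least 500 UMIs, at least 300 genes and at most 5% mitochondrial UMIs were kept. Scrublet (through scanpy 1.11.5, assumed rate 6%) marked 9.109% to 15.53% of these as doublets, which were removed. Nuclei were clustered without solute carrier genes on 2000 variable genes, 40 components and 20 neighbours (leidenalg 0.10.2, resolution 1.0). A cluster was named from at least 3 markers, each at least 2-fold higher and detected in 10% of its nuclei. A gene was compared in a class at a mean of at least 10 CPM and at least 50 UMIs. Python 3.11.15, numpy 2.4.6, pandas 2.3.3, scipy 1.17.1 and scikit-learn 1.9.0 were used, and the calculation of ratios was checked on simulated counts. Gene spans and overlaps came from GENCODE M21, in which 149 of 149 members were found by identifier.

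Named were the 3 members of highest level in each role group, known marker and transmitter carriers, the genes next to the threshold, the 3 members of highest share in each class, and any member called over all nuclei. This gave 65 members. Slc16a11, Slc25a4, Slc25a5, Slc25a23, Slc25a25, Slc26a8, Slc37a1, Slc38a1, Slc39a7, Slc3a2, Slc45a1, Slc50a1, Slc6a15, Slc7a4, Slc7a6 and Slc8a2 are outside this rule and were named after their values were seen. Values of some named genes are not reported here. Alternatives were median-of-ratios scaling, other filters on level, 1.5-fold, equal weights of the 7 compared classes, kept nuclei only, other resolutions and deeper nuclei.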

Additional observations from a re-analysis of the deposited data

Results flagged for a closer look

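For these members the counting intervals of the pairs lay on opposite sides of 0, and the difference between pairs was not tested, since each group had 1 library. The log2 ratio of methanol over unfixed was 0.07 in vivo and -0.21 post-mortem for Slc17a7. With the named classes weighted equally it was -0.83 and -0.72, of 1 sign. In excitatory neuron-like nuclei, where Slc17a7 is highest, it was 0.09 and -0.24. For the phosphate carrier Slc20a2 the ratio was -0.16 in vivo and 0.08 post-mortem, and for Slc9a9 -0.06 in vivo and 0.10 post-mortem. The log2 ratio of in vivo over post-mortem was 0.06 with methanol and -0.09 unfixed for the phosphate carrier Slc20a1. It was -0.15 and 0.09 for Slc20a2, 0.06 and -0.07 for the amino acid carrier Slc7a6, and -0.10 and 0.14 for Slc12a2. With the named classes weighted equally the signs no longer differed for Slc20a1 (-0.18 and -0.28) or Slc12a2 (0.13 and 0.12). Slc20a2 and Slc9a9 kept opposite signs, and Slc7a6 was not run with equal weights. The largest gap between pairs over all members was 0.38 and the median gap 0.07, for both factors.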

How the results depend on the processing

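No paired analysis was possible because the labels give no replicate numbers that pair libraries. An additive fit of fixation and harvest would leave 1 residual degree of freedom and was not run. With every solute carrier gene of at least 1 UMI in each library (319 genes), 3 were 2-fold higher and 8 lower after methanol, and 5 were higher and 6 lower in vivo, against 0 among the members, and the medians were 0.00 (fixation, post-mortem) and -0.07 (fixation, in vivo). With named classes weighted equally 1 member was higher (Slc2a1) and 1 lower (Slc17a6) after methanol, and the harvest medians were -0.01 with methanol and 0.00 unfixed. These weights cover the 7 compared classes only. They leave out unnamed, endothelial-like (Slc2a1 at 944.6 CPM) and thalamic neuron-like nuclei (Slc17a6 at 277.2 CPM). At 1.5-fold, 6 were higher after methanol, and 2 were higher and 2 lower in vivo. At 20 CPM the post-mortem fixation median was -0.00. Median-of-ratios scaling, which shifted all genes by 0.02 for fixation and 0.06 for harvest, gave harvest medians of -0.03 with methanol and -0.01 unfixed.

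The class results were also run under settings chosen after seeing the data. In microglia-like nuclei 11 members were lower at resolution 0.5, 0 among nuclei of at least 1000 UMIs clustered anew, and 1 in the same class at that depth. There the 17 neuron-enriched members had ratios of -0.46 in vivo and 0.50 post-mortem when clustered anew. In oligodendrocyte-like nuclei 9 members were lower at resolution 2.0, with ratios of -1.35 in vivo and -0.99 post-mortem for the 17. That class was not found at resolution 0.5 or when deeper nuclei were clustered anew, so these gave no value. Equal weighting also turned the fixation ratio in vivo of Slc1a3 (to 0.59), Slc39a12 (to 0.43) and Slc16a6 (to 0.40), that post-mortem of Slc27a2 (to -0.31), and the harvest ratio with methanol of Slc16a7 (to -0.19), Slc41a1 (to 0.12) and Slc12a2 (to 0.13). Besides genes named above, it shifted by over 1.5-fold the fixation ratios of Slc2a1 (to 1.19 in vivo and 1.40 post-mortem), Slc6a9 (to 0.62 and 1.06) and, in vivo, Slc7a11 (to 0.66). Smaller shifts were common. With equal weights the fixation ratio left its counting interval for 55 of the 65 named members in vivo and 49 post-mortem. The harvest ratio did so for 48 with methanol and 39 unfixed. The causes were not tested. Depth limits the glial classes, where single members rest on few UMIs.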

Other observations

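Some carriers below the level threshold differed more between libraries than any member. Slc26a4, the anion exchanger pendrin, had 1030 UMIs in vivo and 416 UMIs post-mortem with methanol, and 900 and 385 UMIs without, log2 ratios of 1.44 (1.28 to 1.61) and 1.20 (1.02 to 1.37). Both in vivo libraries stood above both post-mortem ones. Slc5a7, the choline uptake carrier of cholinergic neurons, had 232 UMIs in vivo and 700 UMIs post-mortem with methanol, and 188 and 466 UMIs without, ratios of -1.46 (-1.68 to -1.24) and -1.34 (-1.59 to -1.09). Slc10a4, a vesicle protein of cholinergic and monoamine neurons, had 174 and 439 UMIs with methanol and 57 and 160 UMIs without, harvest ratios of -1.20 and -1.51. It was also higher after methanol, with ratios of 1.41 (0.98 to 1.87) in vivo and 1.10 (0.83 to 1.37) post-mortem. Cholinergic neuron-like nuclei made up 0.191% of kept nuclei in vivo and 0.571% post-mortem with methanol, and 0.239% and 0.569% without. Their part in these ratios was not tested. These genes were picked after their values were seen.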
